A study of Mus musculus with 9 samples.

Results

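The 38 genes described here encode proteins of DNA damage repair and checkpoint signalling in the mouse: Rad genes, homologous recombination and Fanconi genes, end-joining factors and checkpoint kinases. They were chosen by name from the 54532 genes of a count table, and all 38 were present. The list was drawn up with results of these data known, so its counts describe the genes and support nothing about the list. All 38 were among the 13326 genes with enough counts to be tested.

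RNA was sequenced from RENCA, a mouse renal cell carcinoma line, in 3 forms with 3 libraries each. Empty-vector cells carry the genotype label WT. Knockout cells, labelled NDUFA4L2 -/-, were grown from colonies of individual cells after CRISPR editing of Ndufa4l2, a mitochondrial protein gene, and the number of clones behind the 3 libraries was not given in the sources used here. Rescue cells are labelled NDUFA4L2 +/+ and received NDUFA4L2 from a lentivirus with a puromycin resistance cassette, with selection at 1.5 ug/mL; its promoter was not given in the sources used here. All cells grew in the same medium. Effects of the gene, of clone choice, of the virus and of puromycin therefore cannot be told apart. Although the design text names a smaller number of knockout replicates, 3 are labelled and tabulated, and all 3 entered the tests. No label says that replicates were separate cultures, and the p-values therefore cover the spread among these libraries alone, possibly a technical one.

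Library totals ran from 13106531 to 26643877 counts. Ndufa4l2 itself had 6 to 16 counts in empty-vector cells, 6 to 8 in knockout cells and 35 to 73 after rescue, so its mRNA bears on the label of the rescue group alone. Genes of the mitochondrial genome, often read as a measure of RNA quality, took 2.16% to 3.17% of counts in empty-vector cells, 5.79% to 7.93% in knockout cells and 2.23% to 2.65% after rescue. Of 11 epithelial and renal markers, Pax8, Pax2, Cdh16, Krt8 and Krt18 were all above 50 CPM (counts scaled to a common library total) in every group mean, while Epcam, Slc34a1 and Umod had at most 1 count in any library. The list was not level across groups: it summed to 956 to 1180, 1600 to 1720 and 1290 to 1340 CPM in empty vector, knockout and rescue. The adhesion gene Cdh1 averaged 11.9, 99.6 and 2.46 CPM, Krt8 297, 531 and 436, and Cdh16 319, 704 and 489, while Pax8 had 237, 98.6 and 165. Of 10 leukocyte markers 4 were at 0 in every library and Ptprc had at most 2 counts, yet the summed level of the list was 78.3 to 84 CPM in empty-vector cells, 211 to 228 in knockout cells and 39 to 44.4 after rescue, nearly all of it Cd68. Endothelial and fibroblast markers summed to 26.9 to 33.8, 61 to 72.5 and 29.1 to 30.9 CPM in the same order, nearly all of it Pdgfrb (27.8, 59.3 and 24.8 CPM), with Kdr and Lum at 0 in every library and Cdh5, Tek, Pdgfra, Dcn and Col3a1 at no more than 4 counts. The part of these differences in the results below was not tested.

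As background, a break across both strands of DNA is bound by the MRN complex and by the Ku heterodimer, and signals through the kinases Atm and Atr to Chek2 and Chek1. Ku leads to direct end joining, whereas resection by MRN leads to homologous recombination, in which Brca1, Palb2 and Brca2 act on the resected single-stranded DNA. Fanconi proteins unhook crosslinks between strands. Many recombination and checkpoint genes are transcribed mainly in S and G2 phase, so in bulk RNA a smaller share of cells in those phases and less RNA per cell cannot be told apart.

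In knockout cells most of these genes were lower than in empty vector, by a modest amount. At an adjusted p under 0.05 in edgeR's quasi-likelihood test over all genes, 22 of the 38 fell, where 31.1% of all tested genes were called lower, and 5 rose, where 29.5% were called higher. The median log2 change of the 38 was -0.31, beside -0.02 for all genes tested, and 1 gene, Rad51b, fell by more than 1 log2 unit. In rescue against knockout the balance lay the other way, with 22 genes that rose (29.5% of all tested genes) and 3 that fell (27.3%), and a median of 0.24 beside 0.03. These 2 comparisons share the knockout libraries and are not independent of each other. In rescue against empty vector 10 rose (22.4% of all tested genes) and 12 fell (25.1%), with a median of 0.03 beside -0.02. The summed level of the 38 genes was 1981 to 2002 CPM in empty-vector cells, 1576 to 1612 in knockout cells and 2005 to 2061 after rescue. Rad21 alone set the order of rescue and empty vector: without it the sums were 1588 to 1614, 1217 to 1242 and 1497 to 1537 CPM, and every rescue library lay below every empty-vector library and above every knockout library. The library totals behind CPM were scaled by TMM, which corrects for a few abundant genes. Scaled by library totals without TMM, the counts became 28 lower and 1 higher, Nbn, in knockout, and 30 higher and 1 lower, Xrcc5, in rescue against knockout. That scale moved the median of all genes to -0.17 and 0.22, and the share of all calls that were higher from 48.7% to 34.4% and from 51.9% to 69.6%.

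**Figure D1:**
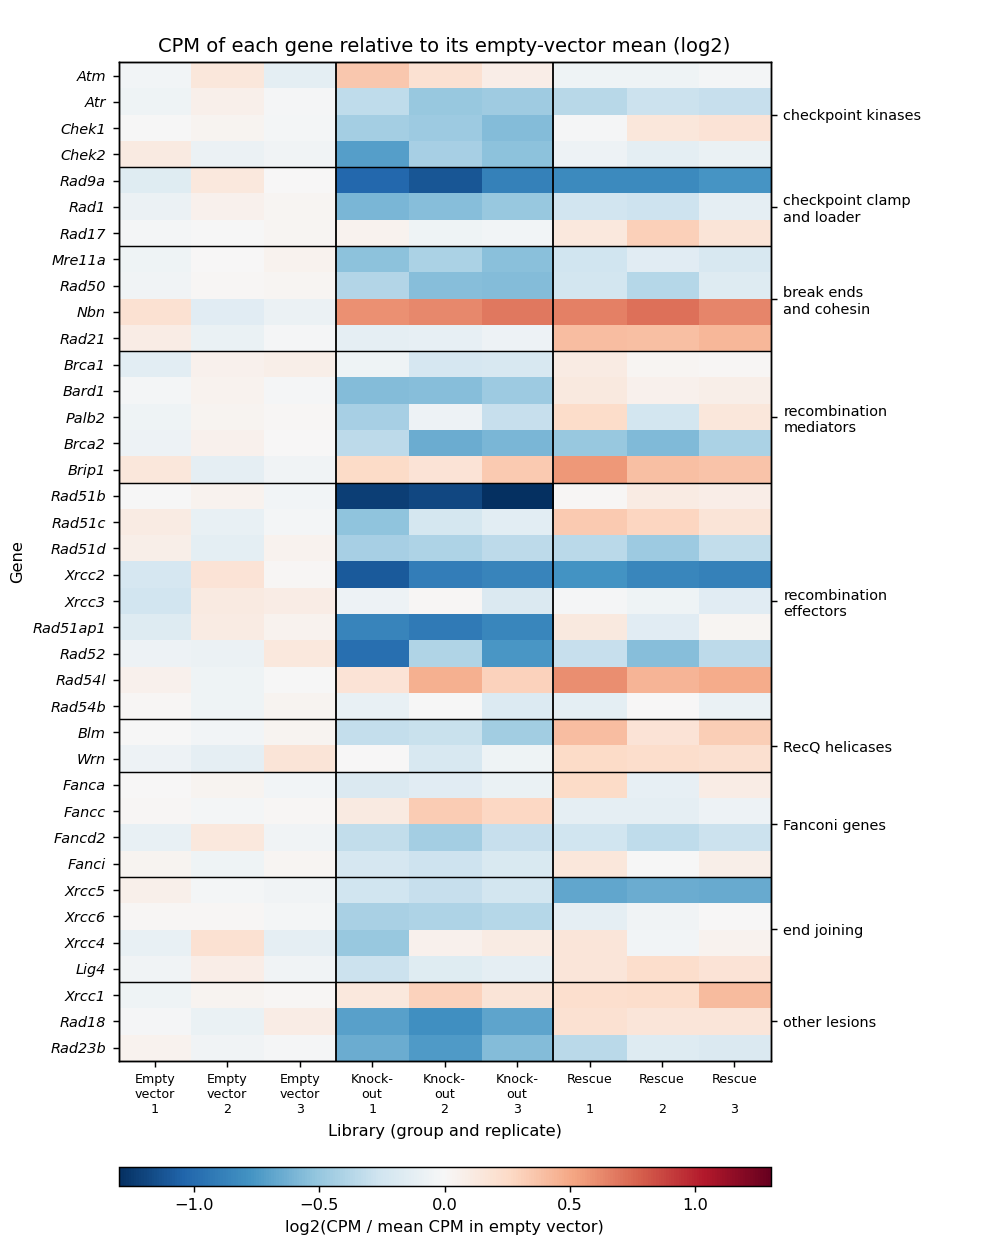
Colour gives the log2 ratio of each gene's CPM in a library (columns, 3 per group) to its mean CPM in empty vector, with the 38 genes in rows grouped by role. Rad51b is darkest blue in the 3 knockout libraries, Rad9a and Xrcc2 are blue in knockout and rescue, and Nbn is red in both.

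**Figure D2:**
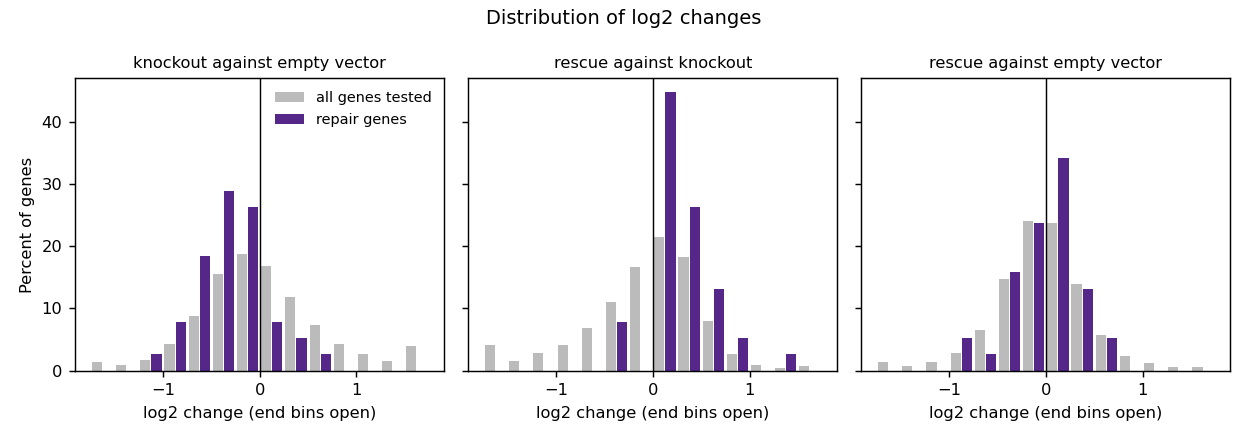
Bars give the percent of all 13326 tested genes (grey) and of the 38 repair genes (violet) in bins of log2 change that are 0.25 wide, with open end bins, for each comparison. Within every bin the violet bar is drawn to the right of the grey bar. Across bins, the violet distribution is shifted toward negative changes in knockout against empty vector (medians -0.31 and -0.02 for violet and grey). It is shifted toward positive changes in rescue against knockout (0.24 and 0.03).

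Levels between genes were compared in the deposited FPKM, which divide by gene length. Rad21, the kleisin subunit of the cohesin ring, was the most abundant in empty vector at 90.7 ± 6.51 FPKM (SD, n = 3), followed by Rad23b, a partner of the lesion sensor of nucleotide excision repair, at 52.2 ± 2.21, the Ku70 gene Xrcc6 at 42.9 ± 1.01 and Rad9a at 33.3 ± 3.04. A wide gap separated these from Rad50 at 13.2 ± 0.201 and Xrcc5 at 13.1 ± 0.705, which did not differ beyond their spread. At the low end stood Fancc at 0.908 ± 0.0238 and Xrcc4 at 1.34 ± 0.162. The median of the 38 was 4.96 FPKM in empty-vector cells, 4.12 in knockout cells and 5.01 after rescue, beside 6.41, 6.40 and 6.30 for all genes tested.

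Of the 4 checkpoint kinases, the effectors Chek1 and Chek2 and the replication stress kinase Atr were lower in knockout, and Atm was not. Chek1, the effector below Atr, had 35.3, 36.2 and 34.8 CPM in empty-vector cells, 26, 25.4 and 23.9 in knockout cells and 35.1, 39.3 and 40.2 after rescue. Every knockout library lay below every other library. On the log2 scale it fell by 0.50 ± 0.07 (SE; adjusted p = 1.1e-05 in edgeR) and rose by 0.61 ± 0.07 in rescue (edgeR adjusted p = 1.1e-06). Chek2, the effector below Atm, showed means of 38.8, 26.4 and 36.4 CPM in empty vector, knockout and rescue, with a log2 change of -0.56 ± 0.08 and then 0.47 ± 0.08. Atr fell by 0.43 ± 0.07 in knockout and remained lower than empty vector in rescue, at -0.31 ± 0.07 (edgeR adjusted p = 0.00098). Atm, which signals breaks, went from 47.2 ± 4.71 to 54.7 ± 5.01 and back to 45.7 ± 0.551 CPM (SD, n = 3), a rise of 0.22 ± 0.08 (edgeR adjusted p = 0.023) and a fall of 0.26 ± 0.08 (edgeR adjusted p = 0.0083). The rise of Atm was not called without empty-vector replicate 3 (edgeR adjusted p = 0.16), knockout replicate 1 (0.16) or knockout replicate 2 (0.052), and its fall not without knockout replicate 1 (edgeR adjusted p = 0.075). With library totals alone neither was called (edgeR adjusted p = 0.55 and 0.44). The rise was also lost in edgeR with no filter on low counts (adjusted p = 0.087) and in limma on FPKM (adjusted p = 0.054).

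The 9-1-1 clamp is a ring loaded onto damaged DNA, where it helps to activate Atr. Its subunit Rad9a had 61.8, 75.7 and 69.2 CPM in empty-vector cells, 33.9, 31.9 and 37.5 in knockout cells and 38.7, 38.7 and 40.5 after rescue. The libraries of knockout and rescue lay all below those of empty vector, and the rescue libraries all above those of knockout. The log2 change was -0.99 ± 0.08 in knockout (edgeR adjusted p = 2.6e-09) and -0.81 ± 0.08 in rescue against empty vector (edgeR adjusted p = 1e-07). Between rescue and knockout it was 0.18 ± 0.08, which did not pass (edgeR adjusted p = 0.062) but was called in 5 of 18 alternatives. Rad9a shares 222 bases with Ppp1ca on the other strand, a gene with a median of 7402 counts a library against 891 for Rad9a, and the strand setting of the counting was not given in the sources used here; its level is therefore uncertain. Ppp1ca changed by -0.24 in knockout and by 0.13 in rescue against empty vector. The ring partner Rad1 had 38.6, 42.3 and 41.6 CPM in empty-vector cells, 27.1, 27.8 and 29.1 in knockout cells and 34.4, 33.9 and 37.7 after rescue, 3 ranges that did not overlap. It fell by 0.54 ± 0.07 in knockout and rose by 0.33 ± 0.07 in rescue (edgeR adjusted p = 0.00075), and stood at -0.21 ± 0.07 in rescue against empty vector (edgeR adjusted p = 0.018). That last call was lost without empty-vector replicate 2 or 3 and without rescue replicate 1 or 2, with an edgeR adjusted p of 0.059, 0.069, 0.07 and 0.084. Rad17, the large subunit of the clamp loader, stood at -0.01 ± 0.08 in knockout and rose by 0.22 ± 0.08 in rescue against knockout (edgeR adjusted p = 0.022) and by 0.20 ± 0.08 against empty vector (edgeR adjusted p = 0.034). Without rescue replicate 2 these had an edgeR adjusted p of 0.11 and 0.18. Without knockout replicate 2 or 3 the first had an edgeR adjusted p of 0.062 and 0.063, and the second one of 0.072, 0.068 and 0.052 without empty-vector replicate 2 or 3 or rescue replicate 3.

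Subunits of the MRN complex, which binds and trims break ends, differed in direction. Mre11a, the nuclease, had 54.6, 56.8 and 58.3 CPM in empty-vector cells, 39.0, 42.6 and 38.8 in knockout cells and 47.3, 51.0 and 48.8 after rescue. Rad50, the ATPase, had 69.8, 72.7 and 73 CPM in empty-vector cells, 55.3, 48.8 and 48.5 in knockout cells and 61.1, 55.6 and 64.0 after rescue. For both genes the rescue libraries lay between the other groups. Both fell by 0.50 ± 0.07 on the log2 scale in knockout (edgeR adjusted p = 2.2e-06 and 4.7e-06) and rose by 0.29 ± 0.07 and 0.25 ± 0.07 in rescue against knockout. Nbn, the scaffold, went the other way, with 17.3, 13.6 and 14.3 CPM in empty-vector cells, 22.8, 23.1 and 24.1 in knockout cells and 23.7, 24.7 and 23.4 after rescue. It was higher in every knockout and rescue library than in any empty-vector library, by 0.63 ± 0.09 (edgeR adjusted p = 9.8e-06) and 0.66 ± 0.09 (edgeR adjusted p = 9.4e-06), and stood at 0.03 ± 0.09 between rescue and knockout. Against empty vector, Mre11a was at -0.21 ± 0.06 in rescue (edgeR adjusted p = 0.013) and Rad50 at -0.25 ± 0.07 (edgeR adjusted p = 0.005). Without empty-vector replicate 3 or rescue replicate 1 the value of Mre11a had an edgeR adjusted p of 0.063 and 0.064. Mre11a shares 203 bases with Ankrd49 on the other strand, which changed by -0.58 in knockout and 0.54 in rescue against knockout.

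Rad21, whose cohesin ring holds sister chromatids together during repair, was raised in rescue cells alone among the 3 groups. It had 413.9, 366.8 and 384.1 CPM in empty-vector cells, 358.0, 359.9 and 370.1 in knockout cells and 513.1, 508.1 and 524.8 after rescue. The ranges of empty vector and knockout overlapped and those of rescue lay above both. The change was 0.51 ± 0.06 against knockout (edgeR adjusted p = 1.2e-06), 0.41 ± 0.06 against empty vector (edgeR adjusted p = 2.8e-05) and -0.10 ± 0.06 in knockout against empty vector, which did not pass (edgeR adjusted p = 0.19). Of 13 other genes of cohesin and the related Smc5/6 complex, 9 fell and 2 rose in knockout, where 31.1% and 29.5% of all tested genes did, and 9 rose in rescue against knockout, where 29.5% did. Smc6, an ATPase of the Smc5/6 complex, fell by 0.81 ± 0.06 and then rose by 0.70 ± 0.06, while the cohesin ATPase gene Smc1a rose by 0.60 ± 0.06 in knockout.

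Among the mediators of recombination, Bard1 and Brca2 fell in knockout, Brip1 rose, and Brca1 and Palb2 did not pass. Bard1, the ubiquitin ligase partner of Brca1, had 41.8, 44.0 and 42.2 CPM in empty-vector cells, 28.9, 29.1 and 30.8 in knockout cells and 46.5, 44.4 and 45.0 after rescue. Its knockout libraries lay far below the rest, with a log2 change of -0.52 ± 0.07 (edgeR adjusted p = 1.2e-06), a rise of 0.61 ± 0.07 in rescue (edgeR adjusted p = 1.7e-07) and 0.09 ± 0.06 between rescue and empty vector. Brca1 itself stood at -0.16 ± 0.07 in knockout (edgeR adjusted p = 0.057; called in 4 of 18 alternatives) and rose by 0.21 ± 0.07 in rescue against knockout (edgeR adjusted p = 0.015), a call lost without knockout replicate 2 or 3 or rescue replicate 1 (edgeR adjusted p = 0.059, 0.06 and 0.06). Brca2, a central mediator of strand exchange, had 31.6, 34.5 and 33.2 CPM in empty-vector cells, 26.1, 21.2 and 21.9 in knockout cells and 23.6, 22.2 and 24.9 after rescue. Knockout and rescue overlapped and both lay below empty vector, by 0.52 ± 0.09 (edgeR adjusted p = 3.5e-05) and 0.49 ± 0.08 (edgeR adjusted p = 9.6e-05). Brip1, a helicase partner of Brca1, had 32.4, 26.9 and 28.2 CPM in empty-vector cells, 34.7, 33.0 and 36.9 in knockout cells and 43.2, 38.3 and 37.8 after rescue. It rose by 0.26 ± 0.08 in knockout (edgeR adjusted p = 0.011) and stood 0.45 ± 0.08 above empty vector in rescue (edgeR adjusted p = 0.00016). The first of these calls was lost without empty-vector replicate 2 or 3 or knockout replicate 3, with an edgeR adjusted p of 0.053, 0.054 and 0.07. With library totals alone it was lost too (edgeR adjusted p = 0.27). Palb2, the bridge between Brca1 and Brca2, rose in rescue against knockout by 0.34 ± 0.13 (edgeR adjusted p = 0.031). That call was lost without knockout replicate 1 or 3 or rescue replicate 1 or 3 (edgeR adjusted p = 0.13, 0.093, 0.18 and 0.084).

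**Figure D3:**
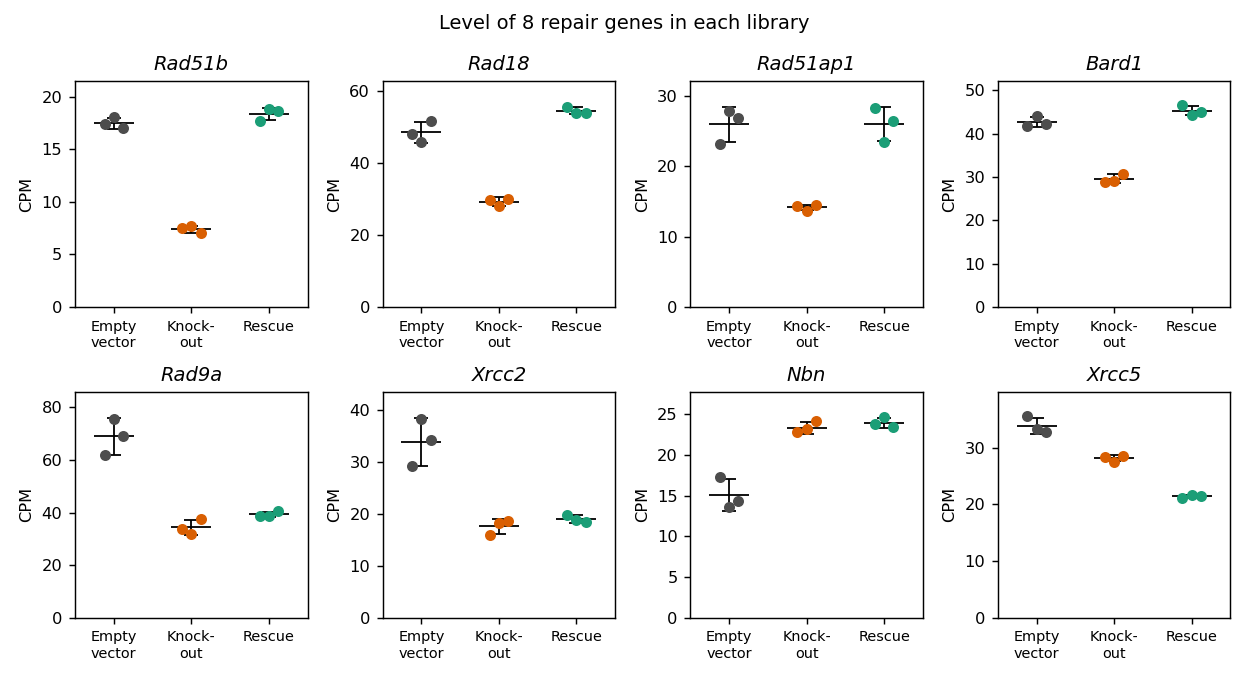
Points give CPM in each library for 8 genes, with the group mean as a bar and the SD as whiskers (n = 3). Rad51b, Rad18, Rad51ap1 and Bard1 are low in knockout alone, Rad9a and Xrcc2 are low in knockout and rescue, Nbn is high in both, and Xrcc5 steps down from 33.8 to 28.1 to 21.4.

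The next 5 genes encode related proteins that assist strand exchange, and 4 of them form the BCDX2 complex. Rad51b, a member of that complex, was the gene with the largest change of the 38 in both comparisons with knockout. It had 17.4, 18.1 and 17.0 CPM in empty-vector cells, 7.50, 7.68 and 7.04 in knockout cells and 17.7, 18.8 and 18.6 after rescue. Every knockout library was far below every other library, at 0.422 times the empty-vector level. The log2 change was -1.25 ± 0.10 (edgeR adjusted p = 1.9e-09), then 1.31 ± 0.10 in rescue (edgeR adjusted p = 8.9e-10), with 0.07 ± 0.09 between rescue and empty vector (edgeR adjusted p = 0.53). Xrcc2, of the same complex, had 29.1, 38.3 and 34.2 CPM in empty-vector cells, 15.9, 18.2 and 18.7 in knockout cells and 19.8, 18.8 and 18.4 after rescue. Knockout and rescue overlapped, and both lay below empty vector, by 0.94 ± 0.10 (edgeR adjusted p = 1.2e-07) and 0.82 ± 0.10 (edgeR adjusted p = 1.3e-06). Rad51d showed the same order at a smaller size, with -0.39 ± 0.08 and -0.38 ± 0.08 and 0.01 ± 0.09 between rescue and knockout.

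Rad51c belongs to both the BCDX2 and the CX3 complex. It had 21.0, 18.3 and 19.1 CPM in empty-vector cells, 13.6, 16.6 and 17.6 in knockout cells and 24.7, 23.6 and 21.8 after rescue, with no overlap between groups. It fell by 0.29 ± 0.10 in knockout (edgeR adjusted p = 0.021), rose by 0.55 ± 0.10 in rescue (edgeR adjusted p = 0.00011) and stood 0.26 ± 0.10 above empty vector (edgeR adjusted p = 0.032). The fall was not called without empty-vector replicate 1 (edgeR adjusted p = 0.079) or knockout replicate 1 (0.13). Nor was it called in DESeq2 (adjusted p = 0.065) or in limma on FPKM (adjusted p = 0.051). The difference from empty vector was lost without empty-vector replicate 2 or 3 or rescue replicate 1 or 2 (edgeR adjusted p = 0.098, 0.096, 0.13 and 0.08). It was also lost in DESeq2 (adjusted p = 0.058) and in limma on FPKM (adjusted p = 0.061). Of edgeR, DESeq2 and limma, each run here on all libraries, only edgeR called Rad51c above empty vector. Its CX3 partner Xrcc3 was not called in any of the 3 comparisons, at -0.08 ± 0.10, 0.01 ± 0.10 and -0.07 ± 0.10. It shares 4653 bases with Klc1 on the other strand, a more abundant gene, and is uncertain.

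Of the other recombination effectors, Rad51ap1, which aids strand pairing, followed the order of Rad51b. It had 23.1, 27.9 and 26.8 CPM in empty-vector cells, 14.3, 13.7 and 14.4 in knockout cells and 28.3, 23.5 and 26.4 after rescue. Empty vector and rescue overlapped and knockout lay below both, with a log2 change of -0.87 ± 0.10 (edgeR adjusted p = 2.3e-07) and 0.88 ± 0.10 in rescue (edgeR adjusted p = 2.2e-07). Rad52, a strand annealing protein, had 8.97, 8.94 and 10.3 CPM in empty-vector cells, 4.77, 7.19 and 5.56 in knockout cells and 7.66, 6.41 and 7.42 after rescue. It fell by 0.71 ± 0.15 (edgeR adjusted p = 0.00031) and stood at -0.39 ± 0.14 in rescue against empty vector (edgeR adjusted p = 0.025), which was lost without empty-vector replicate 3 (edgeR adjusted p = 0.13) or rescue replicate 2 (0.12). The translocase gene Rad54l was the exception in direction, with 26.3, 24.4 and 25.3 CPM in empty-vector cells, 28.7, 34.9 and 31.2 in knockout cells and 38.6, 34.5 and 35.5 after rescue. It rose by 0.31 ± 0.08 in knockout (edgeR adjusted p = 0.0027) and was 0.52 ± 0.08 above empty vector in rescue (edgeR adjusted p = 3e-05). With library totals alone the rise of Rad54l in knockout was not called (edgeR adjusted p = 0.11). Its step from knockout to rescue, 0.20 ± 0.08 (edgeR adjusted p = 0.036), was lost in 7 of 18 alternatives, among them without knockout replicate 1 or 3 or rescue replicate 1 (edgeR adjusted p = 0.17, 0.091 and 0.16) and with the replicate number as a block. Rad54l shares 2780 bases with Lrrc41 on the other strand. Lrrc41 had a median of 745 counts a library against 593 for Rad54l, whose level is therefore uncertain. The related Rad54b was not called in any comparison, at -0.10 ± 0.11, 0.03 ± 0.11 and -0.07 ± 0.10.

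The RecQ helicase Blm, which takes joined DNA molecules apart, had 34.5, 33.7 and 35.4 CPM in empty-vector cells, 27.8, 28.2 and 25.2 in knockout cells and 45.6, 39.1 and 43.2 after rescue. The 3 groups did not overlap. It fell by 0.36 ± 0.08 (edgeR adjusted p = 0.00047), rose by 0.66 ± 0.08 (edgeR adjusted p = 4e-07) and ended 0.30 ± 0.07 above empty vector (edgeR adjusted p = 0.002). Wrn, a RecQ helicase with an exonuclease, stood at -0.08 ± 0.09 in knockout and rose by 0.31 ± 0.09 in rescue against knockout (edgeR adjusted p = 0.0058). Its difference of 0.22 ± 0.09 from empty vector (edgeR adjusted p = 0.04) was lost without empty-vector replicate 1 or 2 and without any of rescue replicates 1 to 3, with edgeR adjusted p-values of 0.054, 0.15, 0.1, 0.087 and 0.071.

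Of the 4 Fanconi genes, Fancd2 and Fanci, which form the clamp that is ubiquitinated at crosslinks, fell in knockout by 0.34 ± 0.08 (edgeR adjusted p = 0.0012) and 0.23 ± 0.08 (edgeR adjusted p = 0.017). The fall of Fanci had an edgeR adjusted p of 0.05 and 0.051, just past the threshold, without empty-vector replicate 1 or 3. In DESeq2 it was not called either (adjusted p = 0.072). Fanci rose again in rescue by 0.31 ± 0.08, and Fancd2 stood at 0.06 ± 0.08 against knockout and at -0.28 ± 0.08 against empty vector (edgeR adjusted p = 0.0065). Fanca, of the core complex, rose in rescue against knockout by 0.23 ± 0.08 (edgeR adjusted p = 0.021) and Fancc fell by 0.34 ± 0.12 (edgeR adjusted p = 0.018). Neither call held throughout. For Fanca the edgeR adjusted p was 0.071, 0.054 and 0.16 without knockout replicate 1 or 2 or rescue replicate 1, and for Fancc 0.068, 0.059, 0.053 and 0.058 without knockout replicate 2 or 3 or rescue replicate 1 or 2. Fanci shares 4034 bases with Polg, Fanca 1446 with Zfp276 and Fancc 41054 with 2010111I01Rik, each on the other strand. The last of these partners had a median of 211 counts a library against 131 for Fancc, and Polg had 1351 against 458 for Fanci. The levels of Fancc and Fanci are therefore uncertain. Polg changed by 0.48 in knockout and by -0.44 in rescue against knockout.

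Among end-joining genes the Ku subunits parted in rescue. Xrcc5, which encodes Ku80, had 35.5, 33.2 and 32.7 CPM in empty-vector cells, 28.4, 27.5 and 28.6 in knockout cells and 21.1, 21.6 and 21.4 after rescue, a stepwise order without overlap. It fell by 0.26 ± 0.07 in knockout (edgeR adjusted p = 0.0036) and by another 0.40 ± 0.07 in rescue (edgeR adjusted p = 0.00013), to 0.66 ± 0.07 below empty vector (edgeR adjusted p = 5.4e-07). Xrcc6, which encodes its obligate partner Ku70, had 196.4, 195.7 and 190.1 CPM in empty-vector cells, 145.3, 147.0 and 150.1 in knockout cells and 179.5, 188.2 and 194.3 after rescue. It fell by 0.40 ± 0.06 (edgeR adjusted p = 7.1e-06) and rose by 0.34 ± 0.06 (edgeR adjusted p = 4.1e-05). Xrcc6 shares 41340 bases with Desi1 on the other strand, a gene of like abundance that changed by 0.13 and -0.27, and is uncertain for that reason. Lig4, the ligase that seals the ends, rose in rescue against knockout by 0.37 ± 0.10 (edgeR adjusted p = 0.0043). Its scaffold Xrcc4 was not called in any comparison, at -0.07 ± 0.17, 0.14 ± 0.16 and 0.08 ± 0.16. Xrcc4 shares 486 bases with Tmem167 on the other strand. That gene had a median of 927 counts a library against 102 for Xrcc4, whose level is therefore uncertain.

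The remaining 3 genes serve other lesions. Rad18, the ubiquitin ligase that starts translesion synthesis, had 47.9, 45.8 and 51.7 CPM in empty-vector cells, 29.8, 27.9 and 30.1 in knockout cells and 55.7, 54.0 and 53.9 after rescue. It fell by 0.73 ± 0.07 (edgeR adjusted p = 2.6e-08) and rose by 0.89 ± 0.07 (edgeR adjusted p = 1.5e-09). Its excess over empty vector of 0.17 ± 0.07 (edgeR adjusted p = 0.041) was lost without empty-vector replicate 2 and without any of rescue replicates 1 to 3 (edgeR adjusted p = 0.16, 0.12, 0.083 and 0.074). Rad23b had 313.3, 294.3 and 300.4 CPM in empty-vector cells, 194.3, 181.2 and 204.7 in knockout cells and 236.7, 269.3 and 266.4 after rescue, so that rescue lay between the other groups. It fell by 0.65 ± 0.07 (edgeR adjusted p = 1e-07), rose by 0.41 ± 0.07 (edgeR adjusted p = 3.3e-05) and stayed 0.23 below empty vector on the log2 scale (-0.23 ± 0.07, edgeR adjusted p = 0.0072; 0.057 without rescue replicate 1). Xrcc1, the scaffold of repair of breaks in 1 strand, rose in knockout by 0.20 ± 0.07 (edgeR adjusted p = 0.019) and was 0.29 ± 0.07 above empty vector in rescue (edgeR adjusted p = 0.0021). Its rise in knockout had an edgeR adjusted p of 0.11 without knockout replicate 2, 0.62 with library totals alone and 0.13 with no filter on low counts.

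**Figure D4:**
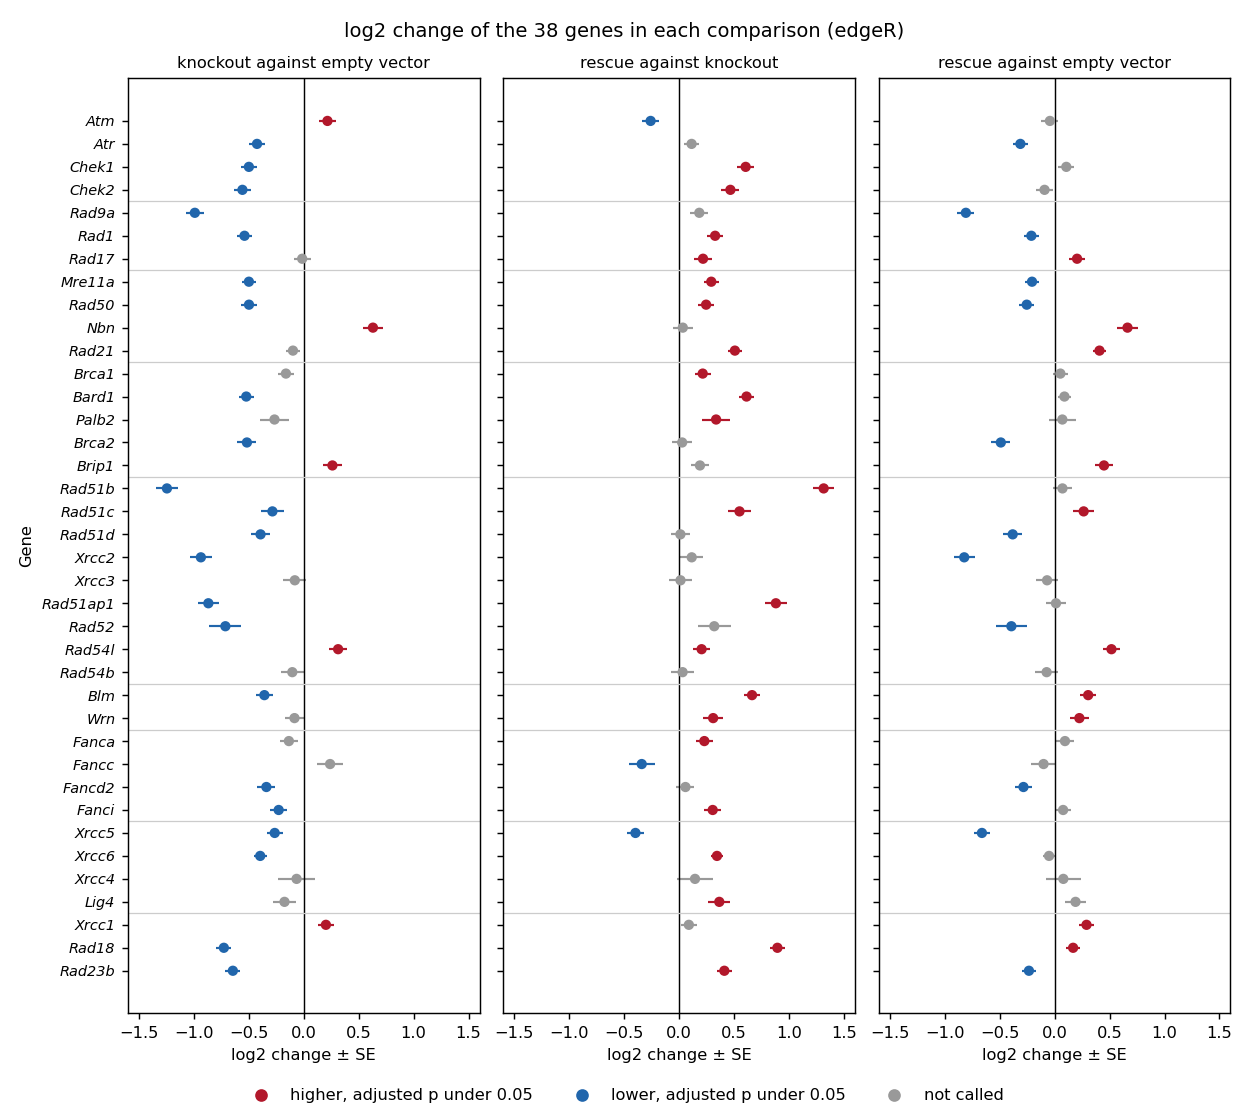
Points give the log2 change of each of the 38 genes with its SE as whiskers, in 3 panels for the 3 comparisons; red is called higher, blue called lower and grey not called (edgeR adjusted p under 0.05). Rad51b lies farthest out in both comparisons with knockout, at -1.25 and 1.31, and Xrcc2 and Rad9a lie lowest in rescue against empty vector, at -0.82 and -0.81.

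Because partners of a complex were compared within a library, their ratio of FPKM does not depend on the library scale. The 10 pairs were formed after the values had been seen, and those given below were picked from them without a rule. Of the 10, 6 did not overlap between knockout and empty vector. Between rescue and knockout 6 did not, and between rescue and empty vector 5. With 3 libraries against 3 an exact two-sided permutation test cannot go below 0.10 for a ratio, and over the 30 comparisons of ratios the smallest adjusted value was 0.18, so none could pass. The ratio of Xrcc6 to Xrcc5 was 3.16, 3.36 and 3.32 in empty-vector cells, 2.93, 3.05 and 3.00 in knockout cells and 4.86, 4.97 and 5.17 after rescue. All rescue values lay above the others. This ratio is uncertain, because Xrcc6 overlaps Desi1 on the other strand. Rad50 over Nbn was 1.90, 2.52 and 2.41 in empty-vector cells, 1.15, 0.995 and 0.946 in knockout cells and 1.21, 1.06 and 1.29 after rescue, so knockout and rescue overlapped below empty vector. By contrast Mre11a over Rad50 stayed at 0.714 ± 0.0089, 0.719 ± 0.077 and 0.742 ± 0.078 (SD, n = 3), with overlapping groups. Within BCDX2, Rad51c over Rad51b was 0.955 ± 0.085 in empty-vector cells, 1.85 ± 0.30 in knockout cells and 1.09 ± 0.096 after rescue. Brca1 over Bard1 was 0.895 ± 0.06, 1.15 ± 0.10 and 0.872 ± 0.014 in the same order, with knockout above both.

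**Figure D5:**
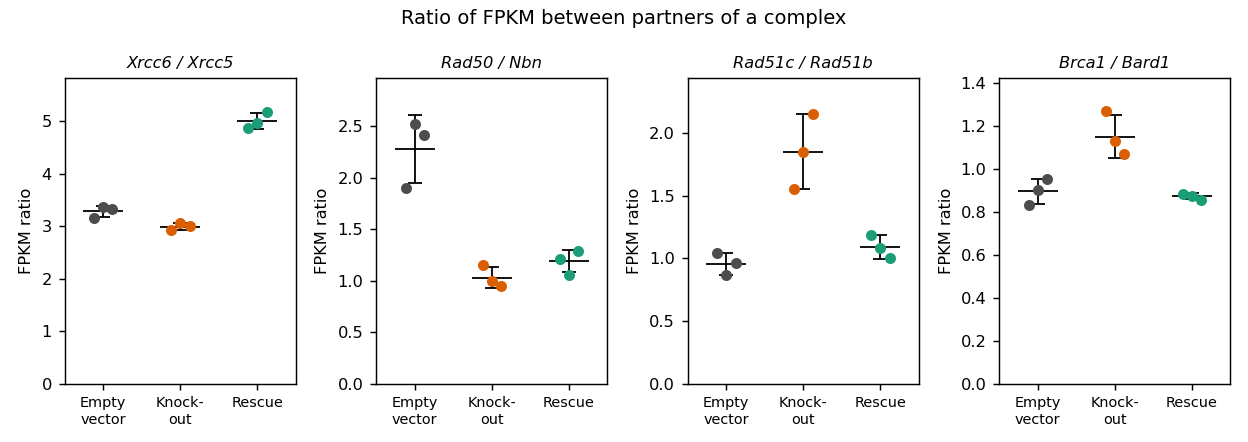
Points give the ratio of FPKM of 2 partner genes in each library, with the group mean as a bar and the SD as whiskers (n = 3). Xrcc6 over Xrcc5 is highest in rescue, at 4.86 to 5.17, and Rad50 over Nbn is highest in empty vector, at 1.90 to 2.52. The level of Xrcc6 is uncertain because of its overlap with Desi1.

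Promoter sequences are shown because several of these genes moved together and many repair genes are known targets of E2F factors. RefSeq windows of the GRCm38.p6 build, the build of the counts, covered 29 of the 38 genes in 35 windows of 300 bases; Rad21, Rad51d, Rad9a, Xrcc2, Wrn, Rad50, Fancd2, Rad54b and Nbn had none. The windows were searched on both strands for the E2F site TTCCCGC, a second form of it with the letters TTGGCGC, the CHR element TTTGAA, its other form TTCGAA, the CCAAT box, and the ETS site CCGGAAG. The 4 below are the 250 bases before the RefSeq start in transcript direction, 5′ to 3′, with every match on either strand in capitals. No rule set the choice of these 4, and they are not typical of the 29 genes. Bard1, Xrcc6 and Brca2 hold TTCCCGC, which 11 of the 29 genes do. Rad18 and Blm, which also fell in knockout and rose in rescue, do not hold it. Bard1 and Xrcc6 fell in knockout and rose in rescue, Brca2 fell and did not pass in rescue against knockout, and Rad51b had the largest change of the 38 in both comparisons with knockout, though not in rescue against empty vector. The positions are chr1:71102973-71103222 (minus strand), chr15:82016119-82016368 (plus strand), chr5:150522371-150522620 (plus strand) and chr12:79297032-79297281 (plus strand).
Bard1: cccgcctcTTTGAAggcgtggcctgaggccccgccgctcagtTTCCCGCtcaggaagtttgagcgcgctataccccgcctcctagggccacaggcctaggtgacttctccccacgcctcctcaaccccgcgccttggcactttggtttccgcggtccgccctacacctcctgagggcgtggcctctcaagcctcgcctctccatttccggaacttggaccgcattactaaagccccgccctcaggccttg
Xrcc6: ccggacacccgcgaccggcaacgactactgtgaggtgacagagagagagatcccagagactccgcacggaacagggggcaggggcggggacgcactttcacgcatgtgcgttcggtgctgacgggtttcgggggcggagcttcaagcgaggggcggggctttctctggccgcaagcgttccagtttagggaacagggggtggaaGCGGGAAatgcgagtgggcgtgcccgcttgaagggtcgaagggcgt
Brca2: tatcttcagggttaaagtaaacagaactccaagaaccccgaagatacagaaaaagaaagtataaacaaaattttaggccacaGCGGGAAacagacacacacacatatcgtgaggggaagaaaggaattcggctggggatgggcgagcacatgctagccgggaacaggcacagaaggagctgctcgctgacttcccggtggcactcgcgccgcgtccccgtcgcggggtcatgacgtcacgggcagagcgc
Rad51b: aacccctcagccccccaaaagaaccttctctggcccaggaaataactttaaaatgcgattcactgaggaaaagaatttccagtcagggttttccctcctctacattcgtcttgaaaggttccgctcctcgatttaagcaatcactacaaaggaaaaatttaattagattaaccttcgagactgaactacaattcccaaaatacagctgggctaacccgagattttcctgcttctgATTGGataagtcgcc

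The Bard1 sequence holds TTCCCGC 208 bases before the start and TTTGAA at 242, Xrcc6 and Brca2 hold TTCCCGC on the opposite strand at 46 and 168, and Rad51b holds a CCAAT box on the opposite strand at 15. Over the full windows TTCCCGC stood in 11 of 35 windows of these genes, or 31.4%, and in 4.6% of all 32851 windows. By gene, it was found in 11 of 29 repair genes and in 931 of 9438 tested genes with a window, or 9.86%. CCGGAAG stood in 31.4% of the windows and in 8.86% of all, CCAAT in 54.3% and 37.4%, TTTGAA in 5.71% and 17.9%, TTGGCGC in 5.71% and 2.45%, and TTCGAA in 2.86% and 1.56%. Counted by gene, CCGGAAG was found in 9 of 29 repair genes and in 21.1% of tested genes with a window. For CCAAT these were 17 of 29 and 43.3%, for TTTGAA 2 of 29 and 14.2%. For TTGGCGC they were 2 of 29 and 5.02%, and for TTCGAA 1 of 29 and 2.5%. The median GC content was 60.0% in these windows and 52.7% in all. Of the 11 genes with TTCCCGC, 9 fell in knockout, Atm rose and Xrcc4 was not called; of the 18 genes with a window and no such match, 8 fell, 3 rose and 7 were not called, and this difference was not tested. In rescue against knockout 7 of the 11 and 12 of the 18 rose, where 29.5% of all tested genes did. In rescue against empty vector 1 of the 11 and 6 of the 18 rose (22.4% of all tested genes). There, 2 of the 11 and 5 of the 18 fell (25.1%). Differences between the 11 and the 18 were not tested. Calls among all tested genes with TTCCCGC were not counted, so these counts show nothing about the motif. A match is a run of letters and not a shown binding site, and no binding was measured here.

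Other genes of the same pathways, from lists written by name, were counted beside the 38. Of 34 further recombination and resection genes, 21 fell and 4 rose in knockout, and 20 rose and 1 fell in rescue against knockout, with medians of -0.29 and 0.25. For these and the lists that follow, the shares over all tested genes were 31.1% lower and 29.5% higher in knockout, and 29.5% higher and 27.3% lower in rescue against knockout. The RecQ helicase gene Recql4 fell by 1.31 ± 0.08, and Rbbp8, the resection factor CtIP, rose in rescue against knockout by 0.84 ± 0.08. Of 27 further checkpoint genes 12 fell and 4 rose in knockout, and 16 rose and 1 fell in rescue against knockout; Tlk1, a chromatin kinase, fell by 0.62 ± 0.06 and rose by 0.68 ± 0.06. The other Fanconi genes gave 3 lower and 4 higher of 18 in knockout, with Fancm, the translocase that anchors the core complex, down by 1.16 ± 0.08 and the nuclease gene Ercc4 up by 0.66 ± 0.07. The other end-joining genes gave 2 lower and 5 higher of 16 in knockout: Prkdc, the kinase recruited by Ku, rose by 0.67 ± 0.08 and fell by 0.90 ± 0.08 in rescue against knockout, while Rif1, which shields ends from resection, fell by 1.08 ± 0.07 and rose by 0.59 ± 0.07.

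Proliferation markers were counted because many of the 38 genes are expressed with the cell cycle. Of 31, 10 rose and 10 fell in knockout against empty vector (median 0.01), and 21 rose and 1 fell in rescue against knockout (median 0.34). In rescue against empty vector 20 rose, where 22.4% of all tested genes did, with a median of 0.27 beside -0.02 for all genes tested. Their summed level was 4090 to 4290 CPM in empty-vector cells, 4160 to 4540 in knockout cells and 5140 to 5270 after rescue. Cdk1, which drives entry into mitosis, fell by 0.44 ± 0.06 in knockout and rose by 0.76 ± 0.06 in rescue, whereas Plk1, a mitotic kinase, rose by 1.00 ± 0.07 in knockout and Mcm4, a helicase subunit of replication, by 0.90 ± 0.07. The summed level of the 38 repair genes was lower in every knockout library than in any empty-vector library. The sum of the proliferation markers, of which 10 rose and 10 fell, overlapped between these groups. Both sums were higher in rescue than in knockout. The part of proliferation in the changes of the 38 was not tested.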

How the data were processed

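RNA of 9 RENCA libraries was analysed, 3 in each of 3 groups. Per the labels' protocols, poly(A) RNA was made into libraries from random-primed cDNA, and the protocol covers a stranded and an unstranded variant without saying which was used. CASAVA, TopHat2, HISAT and HISAT2 are listed without roles, and mm10 as the build, per the submitters' processing notes; the read counter and its strand setting are not given in the sources used here. The authors deposited whole-number counts per gene without normalization and FPKM per library, per the file headers. They also deposited log2 fold changes and p-values, from a test that was not given in the sources used here; these and their columns of group means entered no result printed here.

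The counts entered edgeR 4.0.16 (R 4.3.3): filterByExpr by group (13326 of 54532 genes kept), TMM scaling, a robust quasi-likelihood fit with 1 mean per group over all 9 libraries, and Benjamini-Hochberg adjustment over all genes tested. The SE was taken as the size of the log2 change over the root of the F statistic. The test was checked on simulated counts. Alternatives used DESeq2 1.42.0, limma 3.58.1 on log2(FPKM + 1), other scalings and filters, the 2 groups alone, a replicate block, and each library left out in turn.

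The members and lists were chosen with earlier results of these data known; the rule for the members uses names and no value. All members may be named. Values in every library are given for the 8 called members with the largest change in each comparison and for those called in all 3 comparisons; Xrcc6 falls outside this rule and was shown beside its partner Xrcc5 after its values were seen. Of each further list, up to 3 genes with the smallest adjusted p were eligible. Pairs of replicates exceeded sampling noise, with chi-square over its degrees of freedom at 3.43 to 18.36.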

Additional observations from a re-analysis of the deposited data

How the results depend on the processing

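Each comparison was recomputed under 18 alternatives. No called member changed direction under any of them. Of the members called lower and higher, 20 of 22 and 1 of 5 kept the call in all alternatives in knockout against empty vector, 1 of 3 and 17 of 22 in rescue against knockout, and 8 of 12 and 6 of 10 in rescue against empty vector. Of the members not called, 6 in knockout against empty vector and 8 in rescue against knockout were called in at least 1 alternative, among them Brip1 in the latter in 6 of 18. The number of members called higher in knockout against empty vector was 1 with library totals alone and 3 with no filter on low counts, and ranged from 3 to 5 with 1 library left out. Members lower in rescue against knockout numbered 1 with library totals alone. On that scale Atm, Brip1, Rad54l and Xrcc1 lost their call in knockout against empty vector. Atm and Fancc lost theirs in rescue against knockout, and Rad1 lost its call in rescue against empty vector. Members higher in rescue against empty vector numbered 6 with DESeq2 and 6 to 10 with 1 library left out. With DESeq2, Rad51c and Fanci lost their call in knockout against empty vector. In rescue against knockout Rad17, Palb2, Rad54l, Fanca and Fancc lost theirs, and in rescue against empty vector Rad17, Rad51c, Rad52, Wrn and Rad18. Sign changes arose in members not called, with values near 0 on the log2 scale. In knockout against empty vector they were Rad17 (0.0141 with RLE factors, 0.0025 with DESeq2, 0.0021 with limma on FPKM), Wrn (-0.14 to 0.0024 with 1 library left out) and Xrcc4 (-0.20 to 0.095). In rescue against knockout they were Rad51d (-0.0124 with RLE factors, -0.0189 with the 2 groups alone, -0.0083 to 0.061 with 1 library left out), Xrcc3 (-0.0114 with RLE, -0.0073 with limma, -0.0149 with the 2 groups alone, -0.0452 to 0.062), Brca2 (-0.0027 with the 2 groups alone, -0.018 to 0.12), Rad54b (-0.0149 to 0.076) and Xrcc4 (-0.0162 to 0.28). In rescue against empty vector they were Atm (-0.11 to 0.0313), Fanca (-0.0022 to 0.18), Palb2 (-0.037 to 0.195) and Rad51ap1 (-0.0544 to 0.081) with 1 library left out. The cause of these changes was not tested. With the replicate number as a block, 5 members were higher and 22 lower in knockout, 21 and 3 in rescue against knockout, and 9 and 12 in rescue against empty vector. Same-numbered libraries correlated at -0.15 to 0.045 and differently numbered ones at -0.088 to 0.102. In the labels a number alone links the libraries. Such weak correlations cannot show whether same-numbered libraries shared a culture or a batch. Of 114 group levels, 56 moved by more than 1 SD with library totals alone, 28 of them in knockout. Levels in FPKM are in another unit and were not scored against CPM. Genes below about 10 CPM, such as Xrcc4 and Rad52, have the largest SE, and small changes in them were not detectable at this depth.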

Other observations

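Repair of other lesions was counted in the same fit. Of 9 mismatch repair genes, 5 fell and 2 rose in knockout against empty vector, and 4 rose in rescue against knockout. In rescue against empty vector 5 rose, where 22.4% of all tested genes did. Msh6, a mismatch sensor, was higher than in empty vector in knockout (0.55 ± 0.06 log2 units, SE; edgeR adjusted p = 2.7e-07) and in rescue (0.55 ± 0.06; edgeR adjusted p = 7.7e-07), while Pms2, a mismatch nuclease, fell by 0.54 ± 0.08 in knockout. Of 19 nucleotide excision genes, 9 fell and 6 rose in knockout, with Gtf2h1, a subunit of the TFIIH complex, down by 0.85 ± 0.07 and the transcription-coupled repair factor Xab2 up by 0.58 ± 0.06. In rescue against knockout 6 of the 19 rose. Of 23 tested base excision and direct reversal genes 6 rose and 6 fell in knockout, and 10 rose in rescue against knockout. Tdp1 and Tdp2, which free DNA ends from trapped topoisomerases, fell by 0.59 ± 0.07 and 0.87 ± 0.09 and rose by 0.73 ± 0.07 and 0.64 ± 0.09, and the replication ligase gene Lig1 stood 1.06 ± 0.07 above empty vector in rescue (edgeR adjusted p = 1.8e-09). Of 18 translesion synthesis genes 8 fell and 4 rose in knockout, and the polymerase gene Polh rose by 0.76 ± 0.06 there and was 0.82 ± 0.06 above empty vector in rescue. The medians of these lists in knockout against empty vector lay between -0.20 for mismatch repair and -0.06 for base excision, beside -0.02 for all genes.

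Chromosome medians of the log2 change over all tested genes ran from -0.20 on chromosome 13 to 0.25 on chromosome 16 in knockout against empty vector. Chromosome 13 holds 3 members, Rad17, Fancc and Xrcc4, and chromosome 16 holds none.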
